A study of Mus musculus with 8 samples.

Results

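The members described here are the genomic loci of 6 mouse STAT genes, Stat2, Stat3, Stat4, Stat5a, Stat5b and Stat6, as seen by ATAC-seq, an assay in which a transposase cuts open chromatin and the reads mark where it could reach the DNA. A region of the deposited table belonged to a member when it lay inside the gene, or within 50 kb of it with that gene as the nearest protein-coding gene end. This rule found 44 of 148664 regions: 2 for Stat2, 12 for Stat3, 16 for Stat4, 2 for Stat5a, 7 for Stat5b and 5 for Stat6. Of these regions 32 lay inside a member gene and 12 outside, and each is numbered by its order along the chromosome. Coordinates are those of the deposited table (mm10, GRCm38), and distances to start sites use the nearest RefSeq start of GRCm38.p6. Where a region lay within a gene, exon and intron were not told apart, since the gene table used here holds only gene ends.

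The libraries came from 4 mouse melanoma cell lines grown from lymph nodes of mice with melanoma of the skin. Lines 112 and 113 were labelled Stat3Δ (STAT3 knockout), and lines 119 and 73 were labelled Stat3fl and wild type, so the wild-type lines carried a floxed Stat3 allele. Each line had 2 libraries labelled as biological replicates, made from 50000 cells per reaction. The protocol describes each line as a selected pool of cells while a sample tag calls it a clone, and the Cre driver and the tumour alleles are not given in the sources used here. A p number in each title differed by line (18, 44, 14 and 68 for 112, 113, 119 and 73) and is not explained there. Genotype was varied between lines, so a genotype comparison had 2 lines against 2.

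STAT proteins are transcription factors that wait in the cytoplasm, are phosphorylated by JAK kinases bound to cytokine receptors, pair up and enter the nucleus to bind DNA. STAT3 carries signals of the IL-6 family, STAT2 those of type I interferon, STAT4 those of IL-12, STAT6 those of IL-4, and STAT5A and STAT5B those of growth hormone, prolactin and several interleukins. Stat5b, Stat5a and Stat3 lie side by side on mouse chromosome 11, and Stat2 and Stat6 lie near each other on chromosome 10. The comparison asked whether STAT genes other than Stat3 differed between lines labelled knockout and wild type.

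The promoters of the chromosome 11 genes are shown because the main difference among the lines lay there. Each runs from 250 bases before to 50 bases after a RefSeq start (GRCm38.p6), and capitals mark GGGCGG (GC box) or CCAAT on either strand. Stat5b start 1 is chr11:100850532-100850831 on the minus strand, Stat5a start 1 is chr11:100859406-100859705 on the plus strand, Stat5a start 2 is chr11:100860234-100860533 on the plus strand, and Stat3 start 1 is chr11:100939491-100939790 on the minus strand.
Stat5b start 1: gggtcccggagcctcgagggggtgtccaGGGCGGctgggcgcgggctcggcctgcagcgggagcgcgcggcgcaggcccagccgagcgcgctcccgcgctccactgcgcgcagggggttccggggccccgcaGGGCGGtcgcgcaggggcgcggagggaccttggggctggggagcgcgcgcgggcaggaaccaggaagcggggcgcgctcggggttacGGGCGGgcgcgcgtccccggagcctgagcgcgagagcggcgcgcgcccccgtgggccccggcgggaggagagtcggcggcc
Stat5a start 1: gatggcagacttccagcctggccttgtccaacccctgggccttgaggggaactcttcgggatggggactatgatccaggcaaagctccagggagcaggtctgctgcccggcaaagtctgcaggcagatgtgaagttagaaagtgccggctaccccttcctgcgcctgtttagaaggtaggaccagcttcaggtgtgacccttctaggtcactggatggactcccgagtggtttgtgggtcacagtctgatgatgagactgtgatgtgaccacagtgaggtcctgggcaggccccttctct
Stat5a start 2: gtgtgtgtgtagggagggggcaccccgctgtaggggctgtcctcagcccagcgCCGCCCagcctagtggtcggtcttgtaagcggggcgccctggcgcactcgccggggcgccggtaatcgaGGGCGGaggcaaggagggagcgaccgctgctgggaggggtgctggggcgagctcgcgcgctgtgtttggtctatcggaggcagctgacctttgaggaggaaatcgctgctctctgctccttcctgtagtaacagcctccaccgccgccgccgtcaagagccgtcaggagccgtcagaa
Stat3 start 1: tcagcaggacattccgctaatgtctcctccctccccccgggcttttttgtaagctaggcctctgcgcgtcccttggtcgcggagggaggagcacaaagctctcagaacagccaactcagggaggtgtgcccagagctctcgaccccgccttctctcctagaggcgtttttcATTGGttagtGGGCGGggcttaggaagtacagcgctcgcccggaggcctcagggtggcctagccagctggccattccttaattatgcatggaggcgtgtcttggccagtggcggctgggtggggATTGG

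GC content was 82.7% at Stat5b start 1, with 50 CpG dinucleotides. It was 67.7% with 27 CpG at Stat5a start 2, 60.7% with 15 CpG at Stat3 start 1, and 57.7% with 5 CpG at Stat5a start 1. GGGCGG occurred 3 times at Stat5b start 1, 2 times at Stat5a start 2 and once at Stat3 start 1. Among all 9 RefSeq starts of the 6 genes, GGGCGG was found in 4 and CCAAT in 3, against 35.7% and 37.4% of the 32851 promoters in the table. The STAT motif TTCNNNGAA, the C/EBP motif TTGCNNAA, the E-boxes CATGTG and CACGTG and the AP-1 motif TGANTCA were searched on both strands and had no match in the 9 windows. They are present in 8.3%, 10.8%, 14.2%, 7.15% and 7.81% of all promoters, in that order. All 4 promoters printed above overlapped a region of the table, whereas Stat5b start 2 and both Stat4 starts overlapped none.

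Stat5a and Stat5b are close copies of one another, and a stretch upstream of Stat5a start 2 resembled one upstream of Stat5b start 2 (chr11:100822521-100822820, minus strand). The best local alignment spanned 104 columns with 83 identical bases, 79.8%, shown here with identical bases in capitals and gaps left out.
Stat5a start 2, aligned stretch: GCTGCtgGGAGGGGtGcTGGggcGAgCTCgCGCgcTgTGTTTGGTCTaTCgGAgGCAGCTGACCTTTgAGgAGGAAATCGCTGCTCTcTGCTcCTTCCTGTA
Stat5b start 2, aligned stretch: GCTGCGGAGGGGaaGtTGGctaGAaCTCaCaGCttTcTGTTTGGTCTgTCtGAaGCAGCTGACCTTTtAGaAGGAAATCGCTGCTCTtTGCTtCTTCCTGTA
Reads that fit more than one copy could be placed at either, and how far this moved the counts was not tested.

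The main difference among the lines was at Stat5b and Stat5a, and it separated line 119 from the other wild-type line as well as from the knockout lines. Line 119 had almost no ATAC-seq counts at any of the 9 regions of these genes, which span 71.1 kb (chr11:100789591-100860690). Summed over the 9 regions, line 119 had 2 counts in replicate 1 and 0 in replicate 2. The other libraries had 333 and 249 counts (line 112), 334 and 292 (line 113) and 331 and 277 (wild-type line 73). Line 119 was not the shallow line: its total counts were 7464336 and 5736939, against 2697546 to 5029386 in the other libraries. Both of its counts fell at the Stat5b start, in region 6.

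At Stat5b region 6 (chr11:100849998-100851451), which holds start 1 of the gene with the 3 GC boxes shown above, accessibility was 27.2 and 32.3 CPM (counts scaled to 1000000 per library) in line 112, 31.0 and 24.4 (line 113), 34.8 and 33.3 (line 73), and 0.258 and 0 (line 119). Stat5a region 2 (chr11:100860145-100860690), around start 2 of that gene, gave 20.7 and 17.5 CPM (line 112), 20.4 and 22.7 (line 113), 22.3 and 16.7 (line 73) and 0 in both libraries of line 119. At region 6 line 73 lay just above the knockout libraries without passing the test (112 over 73, log2 -0.20, adjusted p = 0.423; 113 over 73, -0.30, adjusted p = 0.232; edgeR), and at Stat5a region 2 the knockout and line 73 libraries overlapped. Line 119 lay below all other libraries at both.

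Summed over its regions, Stat5a stood at 33.0 and 25.5 CPM (line 112), 31.3 and 31.9 (line 113), 23.8 and 17.8 (line 73) and 0 in both libraries of line 119. With the floor set at 3 counts over both libraries of line 119 (0.220 CPM), the Stat5a sum was at least 136-fold higher in line 112, at least 144-fold higher in line 113 and at least 95.2-fold higher in line 73. The Stat5b sum stood at 44.5 and 51.1 CPM (line 112), 44.4 and 38.7 (line 113), 60.9 and 59.2 (line 73), and 0.258 and 0 (line 119). Over the 2 counts of line 119, the ratio of the Stat5b sum was 323 (95% counting interval 88.8 to 2679) for line 112, 284 (78.2 to 2358) for line 113 and 410 (113 to 3399) for line 73. These intervals cover counting error only.

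The low stretch had neighbours with counts on both sides. To the left, the nearest region of the table, at Ghdc (chr11:100769979-100771226), had 71 and 67 counts in line 119. To the right, Stat3 region 1 (chr11:100887115-100887615), at the far end of Stat3, had 7 and 12. The gap between these neighbours was 115.888 kb, and the authors' peak lists held 0 peaks inside it in either library of line 119, against 2 to 5 in each of the other 6 libraries. Over the 10 regions on either side, 20 in all, line 119 had 3 to 154 counts per library, and the log2 difference of line 119 from the mean of the other lines ran from -1.99 to 0.68 with a median of -0.64. The files hold no measure of DNA copy number, so whether this stretch of DNA was present in line 119 was not tested.

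**Figure D1:**
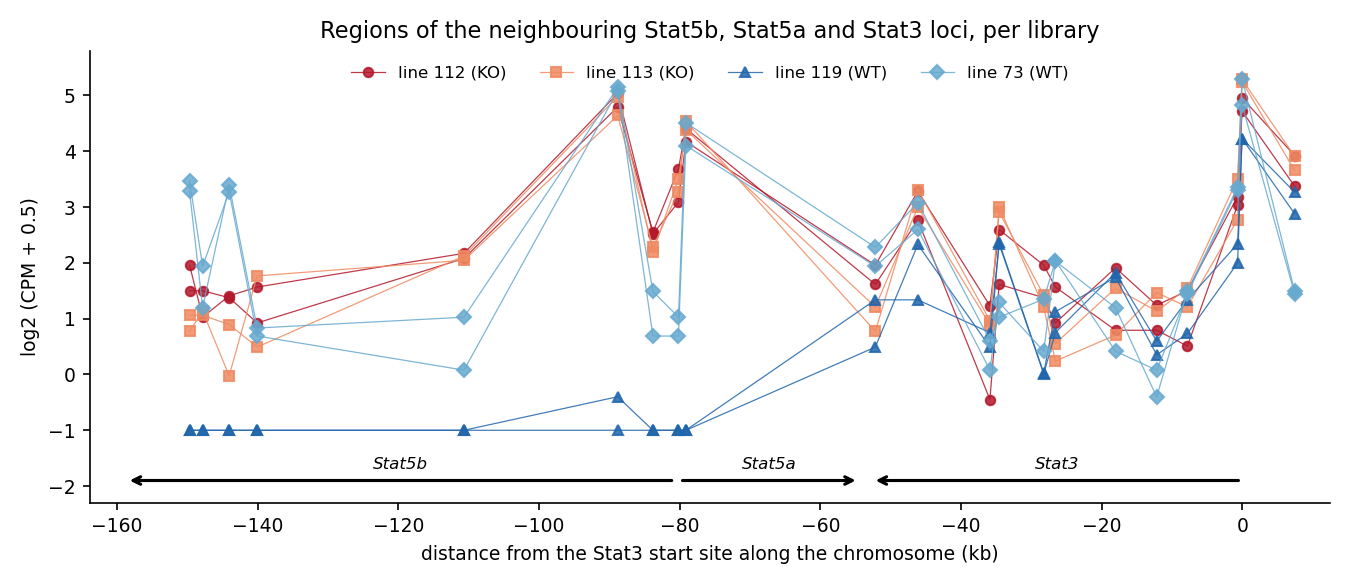
Accessibility, as log2(CPM + 0.5), at each region of Stat5b, Stat5a and Stat3 against distance from the Stat3 start site in kb, with 1 line per library, 2 libraries per cell line, and arrows for the direction of transcription. Line 119 (dark triangles) sits at the bottom of the scale at all 9 Stat5b and Stat5a regions, with 2 counts in all. It has counts again at the Stat3 regions, but at the Stat3 start (region 11) it stays below the other lines (18.2 against 25.9 to 38.9 CPM).

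Runs of this kind were few in these lines. Of 101179 regions with at least 1 CPM in each of lines 112, 113 and 73, 133 (0.131%) had at most 2 counts in line 119, and 8 of those were the 8 Stat5a and Stat5b regions that met the 1 CPM level. Counting regions where the median of the other 3 lines was at least 1 CPM, a run of 9 or more consecutive regions with at most 2 counts occurred 2 times in line 119. One was the 9 regions here, and the other was 15 regions on chromosome 19. Line 73 also had 2 such runs, of 9 regions each, on chromosomes 14 and X, while lines 112 and 113 had 0, their longest run being 8. The stretch was looked at after its values had been seen. The cutoff of 9 equals its own number of regions, so it met that cutoff by construction.

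Away from line 119, the Stat5 loci differed among the remaining lines at single regions. Stat5a region 1 (chr11:100859049-100859688), at start 1 of the gene, gave 12.3 and 8.0 CPM (line 112) and 10.9 and 9.19 (line 113), against 1.54 and 1.11 (line 73) and 0 in both libraries of line 119. All 4 knockout libraries were above all 4 wild-type libraries. Line 112 exceeded line 73 by 2.93 on the log2 scale (adjusted p = 8.95e-08, edgeR quasi-likelihood test between lines) and line 113 exceeded it by 2.89 (adjusted p = 6.07e-08). Stat5b regions 5 and 7, upstream of a start, went the same way, with 3.63 to 5.35 CPM in the knockout libraries and 0.556 to 2.30 in line 73. Their differences from line 73 were 1.27 to 1.83 on the log2 scale, with adjusted p between 0.00395 and 0.0232.

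Near the far end of Stat5b the order was reversed. Stat5b region 1 (chr11:100789591-100790096) gave 9.22 and 10.6 CPM (line 73), against 2.33 and 3.39 (line 112), 1.59 and 1.21 (line 113) and 0 in line 119. Line 112 was lower than line 73 by a log2 difference of -1.81 (adjusted p = 6.68e-05, edgeR test between lines), and line 113 by -2.79 (adjusted p = 8.35e-08). Stat5b region 3, named after its values were seen, showed 9.99 and 9.17 CPM (line 73) and at most 2.15 elsewhere. Within Stat5b, then, line 73 exceeded the knockout lines at 2 regions, lay below them at 2 (regions 5 and 7), and missed the threshold against both at the other 3.

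The genotype comparison, 2 knockout lines against 2 wild-type lines, called no STAT region. Counts were summed per line and tested with edgeR's quasi-likelihood test, and a call needed a Benjamini-Hochberg adjusted p under 0.05 over all 140329 regions tested. Of the 44 regions 42 passed the filter on low counts, and Stat3 region 3 (39 counts in all) and Stat4 region 11 (42) did not. Of the 42 tested, 0 were called, where the share called among all regions was 0%. An unadjusted p under 0.05 was reached by 5, against 16.9% of all regions. The smallest edgeR adjusted p was 0.156, at Stat5a region 1. The fitted log2 difference, knockout over wild type, ran from -1.61 to 4.06 with a median of 0.63, and was positive at 30 of 42. The median over all regions was -0.09.

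That result depended on line 119 and on the unit of replication. Without both libraries of line 119, an alternative chosen after seeing the data, 7 of 44 member regions were called against line 73 alone, whose single sum is assumed to vary like the knockout lines. In that fit 21.1% of all regions were called, so the share among STAT regions was no higher than elsewhere. The highest differences among those described here were at Stat4 region 5 (log2 3.16, adjusted p = 0.00926), Stat5a region 1 (2.96, adjusted p = 0.0138) and Stat4 region 1 (2.81, adjusted p = 0.0227), and Stat5b region 1 was lower in the knockout lines (-2.21, adjusted p = 0.0210). With the 8 libraries treated as independent, 8 of 42 regions were called, where 22.7% of all regions were, but libraries of 1 line share their cells. DESeq2 on the line sums called 1 of the 30 to which it gave an adjusted p, Stat5a region 1 (adjusted p = 0.0141). It called 4.83% of all regions, those without an adjusted p included.

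**Figure D2:**
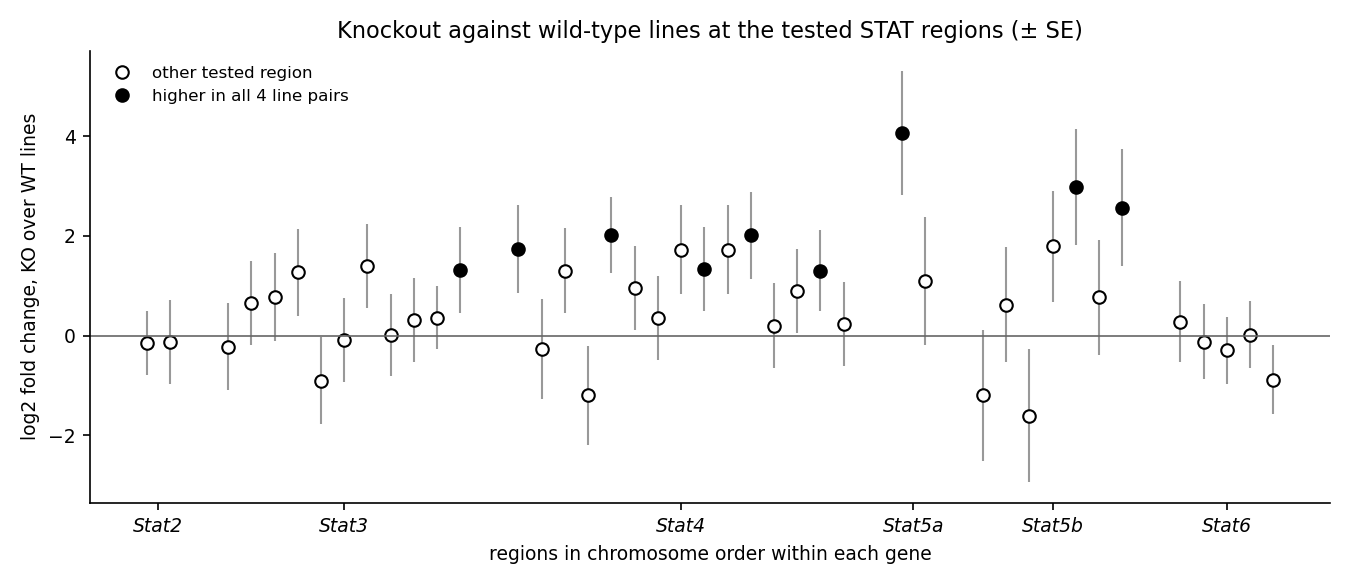
Fitted log2 fold change, knockout over wild-type lines, for the 42 tested regions in chromosome order within each gene; bars are ± 1 standard error from the edgeR fit on 4 line sums. Filled points mark the 9 regions where both knockout lines were higher than both wild-type lines with an adjusted p under 0.05 in each of the 4 tests between lines; in the genotype test none of the 42 passed an adjusted p under 0.05, and the fold changes at Stat5a and Stat5b include the near-zero counts of line 119.

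Between single lines, STAT regions often differed, and so did regions everywhere. Of the 42 regions, 26 (61.9%) were called between lines 112 and 119, where 45.8% of all regions were. The counts were 21 between 112 and 73 (all regions 49.9%), 28 between 113 and 119 (58.9%) and 19 between 113 and 73 (52.2%). Within a genotype, 7 were called between the knockout lines (23.8%) and 27 between the wild-type lines (56.9%). The wild-type lines thus differed at more STAT regions than the knockout lines did, but the same held over all regions, and these comparisons share lines. They compare lines and not genotypes, and the 9 Stat5a and Stat5b regions count among the calls in each comparison with line 119.

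A region was termed separated where each knockout line differed from each wild-type line past the threshold, always in 1 direction (4 tests). Among the members, 9 of 42 (21.4%) were separated and higher in the knockout lines, against 7.64% of all regions. In the lower direction there were 0, against 7.41%. They were Stat3 region 12, Stat4 regions 1, 5, 9, 12 and 15, Stat5a region 1 and Stat5b regions 5 and 7. By library, 13 regions (31.0%) had every knockout value above every wild-type value, against 14% of all regions, and 0 had the opposite, against 12.6%. The last 3 of the 9 separated regions owe 2 of their 4 pairs to the zero counts of line 119. Compared with line 73 alone, 12 regions were higher in both knockout lines and 4 lower, against 17.6% and 19.2% of all regions. The 9 fell to 5 without line 112 replicate 1 (all regions 5.49%), without line 113 replicate 2 (7.14%) or without line 73 replicate 2 (6.18%). When only regions with a mean of at least 50 counts per library were kept, 1 of 9 members was separated and higher (all regions 5.62%).

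Stat4, which in T cells and natural killer cells carries the IL-12 signal towards interferon gamma, held 5 of the 9 separated regions. Summed over its 16 regions, Stat4 stood at 119 and 98.8 CPM (line 112), 99.2 and 96.8 (line 113), 58.8 and 59.4 (line 119) and 36.1 and 42.8 (line 73). All knockout libraries were above all wild-type libraries, and line 73 was lowest. The means were 103 ± 7.60 CPM (SD, n = 2 lines) in knockout and 49.3 ± 13.9 in wild type, a log2 difference of 1.05 ± 0.39 (SE) with adjusted p = 0.373 in edgeR's genotype test. Each of the 4 pairs across genotypes passed, with log2 differences of 0.85 (112 over 119), 1.83 (112 over 73), 0.37 (113 over 119) and 1.36 (113 over 73). The pair of 113 and 119 was the closest of these (adjusted p = 0.00959, edgeR test between lines) and missed the threshold without line 113 replicate 2 (adjusted p = 0.0591), line 119 replicate 1 (0.0919) or line 119 replicate 2 (0.0804). Against line 73 alone the sum differed by 1.61 (adjusted p = 0.00069, both libraries of line 119 left out).

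The Stat4 starts overlapped no region of the table, and the region with most counts lay 9.94 kb downstream of start 1, inside the gene. This region 5 (chr1:51996769-51997406) gave 34.7 and 18.8 CPM (line 112), 38.5 and 27.8 (line 113), 10.1 and 12.7 (line 119) and 3.07 and 3.89 (line 73). The groups did not overlap, and its log2 difference was 2.02 ± 0.77 (SE) with adjusted p = 0.206 (edgeR, line sums). Between lines it was 1.27 (112 over 119) to 3.25 (113 over 73), with adjusted p of at most 1.67e-05.

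Upstream of the gene, Stat4 region 1 (chr1:51968937-51969498) gave 3.62 to 7.02 CPM in the knockout libraries, 1.94 and 3.04 (line 119) and 0.512 and 1.11 (line 73). Beyond the other end, region 15 (chr1:52111244-52112134) gave 12.2 to 18.2 CPM in the knockout libraries, 8.92 and 5.74 (line 119) and 3.84 and 5.83 (line 73). Inside the gene, regions 9 (chr1:52038984-52039563) and 12 (chr1:52092883-52093389) had 3.39 to 7.50 CPM in the knockout libraries and 0.675 to 3.23 in the wild-type ones. All 4 of these were higher in every knockout library than in any wild-type library, which largely follows from their being separated. Of all 15 tested Stat4 regions, 8 were higher in this way, against 14% of all regions.

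Stat4 region 4 (chr1:51978952-51979507), the upstream region nearest the gene, went another way. It gave 5.56 and 6.75 CPM (line 119), 1.36 to 1.63 in the 4 knockout libraries and 1.02 and 0 (line 73). Line 119 exceeded line 73 by 3.46 on the log2 scale (adjusted p = 6.62e-07, edgeR test between lines) and exceeded line 112 as well (112 over 119, -1.92, adjusted p = 0.000324). Region 2, named after its values were seen, likewise had its highest values in line 119, 9.43 and 9.96 CPM. At both regions line 119 was above all other libraries and line 73 was lowest.

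**Figure D3:**
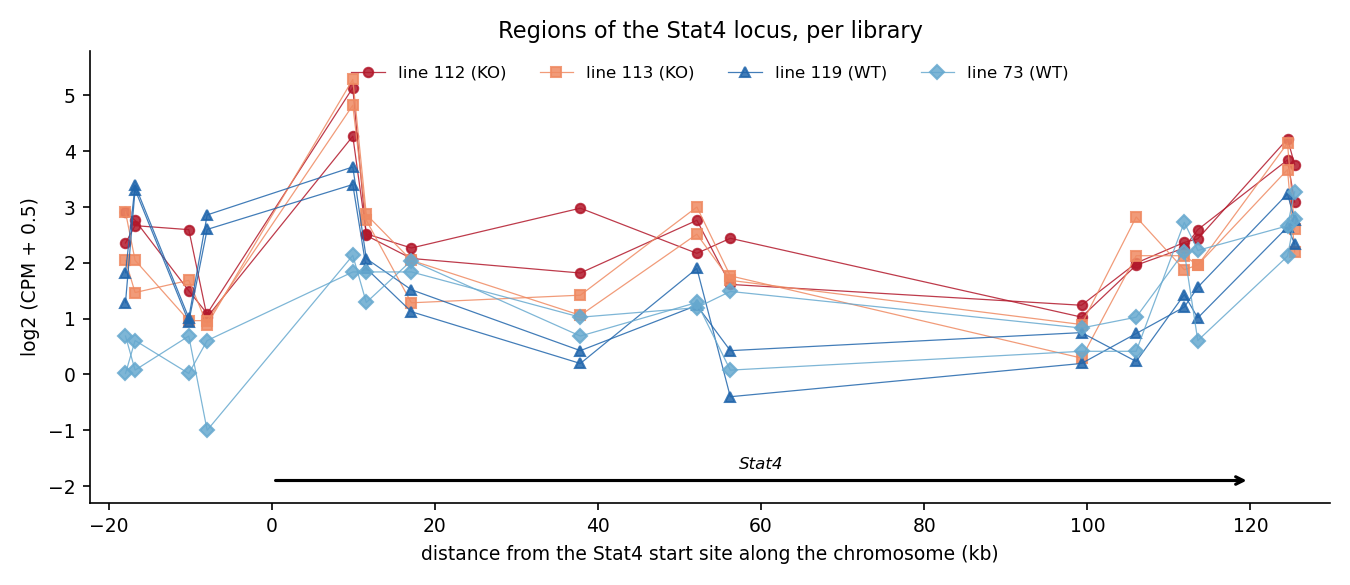
Accessibility, as log2(CPM + 0.5), at the 16 Stat4 regions against distance from Stat4 start 1 in kb, with 1 line per library and 2 libraries per cell line. At region 5, 9.94 kb into the gene, the 4 knockout libraries lie at 18.8 to 38.5 CPM and the wild-type libraries at 3.07 to 12.7 CPM; line 119 is highest at regions 2 and 4 upstream.

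Stat3, the gene named in the knockout label, kept counts at its regions in all 4 lines. Its sum was 76.3 and 72.6 CPM (line 112), 85.2 and 89.3 (line 113), 46.5 and 49.5 (line 119) and 75.8 and 59.2 (line 73). Knockout and wild-type libraries overlapped, since line 73 replicate 1 exceeded line 112 replicate 2. The means were 80.9 ± 9.0 CPM in knockout and 57.7 ± 13.8 in wild type (SD, n = 2 lines), a log2 difference of 0.51 ± 0.31 (SE) with adjusted p = 0.672 (edgeR). All 4 pairs across genotypes passed, by 0.41 to 0.60 on the log2 scale. The smallest, 113 over 73, had adjusted p = 0.00824 by edgeR, and 0.0898 without line 113 replicate 2 or 0.127 without line 73 replicate 2. No Stat3 region was separated and lower in the knockout lines. The position of the floxed part of Stat3 is not given in the sources used here, so these regions do not check the knockout label.

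The Stat3 start, region 11 (chr11:100939208-100939818), gave 30.5 and 25.9 CPM (line 112), 38.5 and 37.5 (line 113), 18.2 in both libraries of line 119 and 38.9 and 28.1 (line 73). Only line 119 stood below the rest, and its differences from the other 3 lines passed (adjusted p from 4.37e-06 to 0.0075, edgeR tests between lines), while 112 over 73 (log2 -0.25, adjusted p = 0.307) and 113 over 73 (0.18, adjusted p = 0.456) did not. Stat3 region 12 (chr11:100946641-100947355), 7.458 kb upstream of the start, was the separated one. It gave 14.7 and 9.85 CPM (line 112), 14.5 and 12.1 (line 113), 6.85 and 9.12 (line 119) and 2.30 and 2.22 (line 73). The log2 differences were 2.44 and 2.54 over line 73 but 0.65 and 0.75 over line 119, where adjusted p was 0.0462 for line 112 and 0.0138 for line 113.

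At the far end of Stat3, region 1 gave 1.21 to 3.39 CPM in the knockout libraries and 0.905 to 4.35 in the wild-type ones. Stat3 region 8 (chr11:100927127-100927628), the region of the gene with the smallest genotype p, had 1.23 to 2.27 CPM in knockout and 0.256 to 1.01 in wild-type libraries. Its 44 counts over 8 libraries gave adjusted p = 0.416 (edgeR, line sums).

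Stat2, the STAT that joins IRF9 in the interferon-stimulated complex, differed among lines without a split by genotype. Its sum was 33.3 and 21.2 CPM (line 112), 42.6 and 44.8 (line 113), 24.3 and 27.2 (line 119) and 53.8 and 54.7 (line 73). Each genotype thus held a lower line (112, 119) and a higher one (113, 73). The means were 35.5 ± 11.6 CPM in knockout and 40.0 ± 20.2 in wild type (SD, n = 2 lines), with a log2 difference of -0.11 and adjusted p = 0.978 (edgeR). The start, region 1 (chr10:128270170-128270751), has its midpoint in the neighbouring gene Apof, so its counts cannot be given to Stat2 alone. It ran from 14.8 to 46.7 CPM, with a peak in all 8 libraries. Region 2 (chr10:128283649-128284583), inside the gene, had 4.35 to 6.46 CPM in the knockout libraries, 3.49 and 4.73 (line 119) and 8.45 and 8.06 (line 73).

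Stat6, which carries IL-4 and IL-13 signals, was highest in line 73. Its sum was 78.7 and 64.6 CPM (line 112), 94.9 and 89.0 (line 113), 58.9 and 64.0 (line 119) and 157 and 127 (line 73). The means were 81.8 ± 14.4 CPM in knockout and 102 ± 57.2 in wild type (SD, n = 2 lines), with a log2 difference of -0.24 and adjusted p = 0.930 (edgeR). Both knockout lines were below line 73, by -0.62 and -0.59 on the log2 scale, and so was line 119 (-0.81, adjusted p = 2.68e-06, edgeR test between lines). The knockout lines did not pass against line 119 (adjusted p = 0.211 and 0.112). With scaling by total counts in place of TMM both of those pairs passed, at 0.30 and 0.32; that scaling moved the median of all genes by 0.11 and 0.09 in the same pairs.

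The Stat6 start, region 3 (chr10:127642429-127643343), gave 22.1 and 17.9 CPM (line 112), 29.9 and 28.1 (line 113), 16.8 and 15.9 (line 119) and 49.4 and 38.9 (line 73). Past the far end, region 5 (chr10:127661788-127662596) lies inside the neighbouring gene Nab2 and is shared with it. It gave 46.6 and 33.6 CPM (line 73) and 10.4 to 21.9 in the other 6 libraries. Line 73 was above all other libraries at both.

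**Figure D4:**
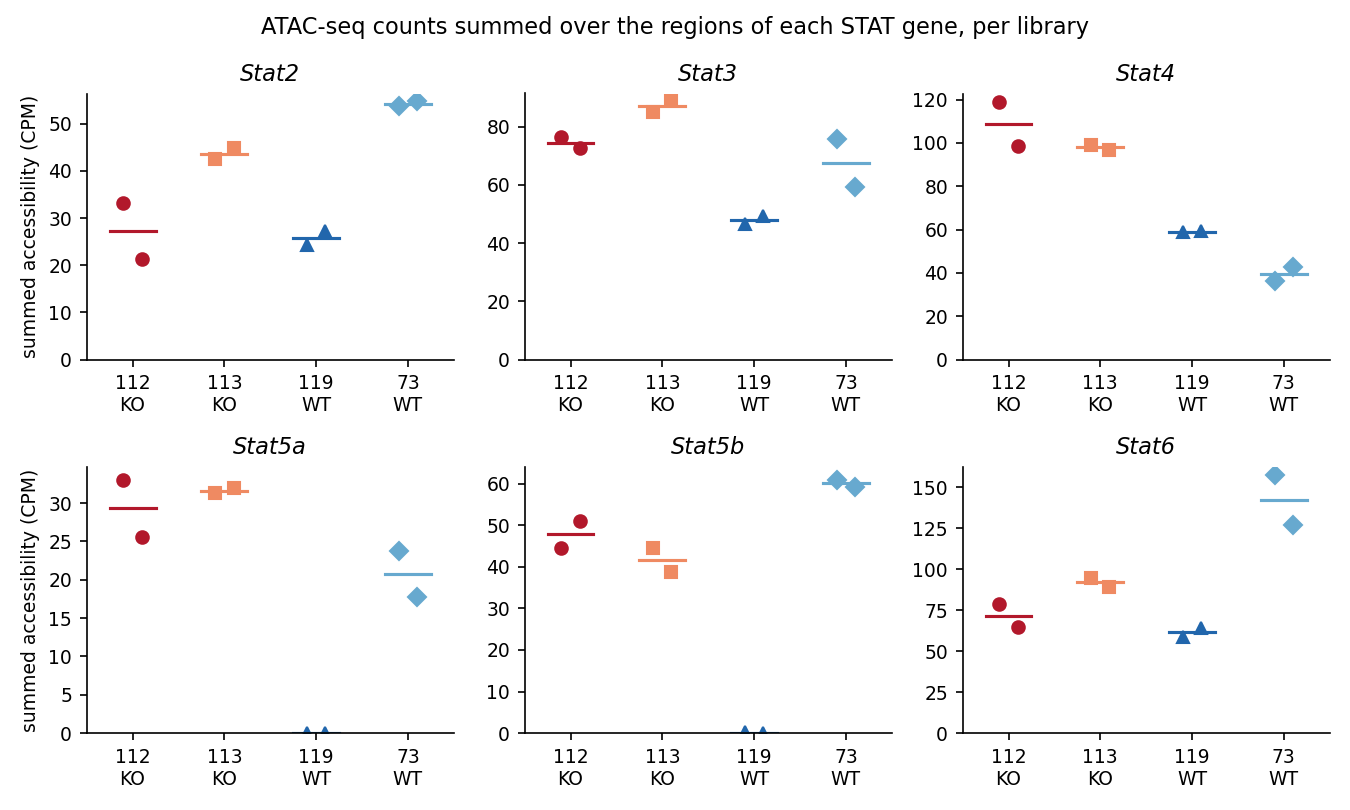
Summed accessibility in CPM over the regions of each STAT gene, 1 panel per gene with its own axis from 0; points are the 8 libraries and bars the mean of the 2 libraries of a line. At Stat4 (knockout 96.8 to 119 CPM, wild type 36.1 to 59.4) and at Stat5a (25.5 to 33.0 against 0 to 23.8) all knockout libraries lie above all wild-type ones; Stat5a and Stat5b lie at or near 0 in line 119 alone, and Stat2 and Stat6 are highest in line 73.

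Taking the sums of all 6 genes, 0 were called in the genotype test, against 0.0691% (12 of 17360) of all genes tested. With libraries as units 2 were called, Stat3 and Stat4, where 13.2% of all genes were, and without line 119 1 was, Stat4, where 10.6% were. Stat5a had means of 30.4 ± 1.63 CPM in knockout and 10.4 ± 14.7 in wild type (SD, n = 2 lines; adjusted p = 0.896, edgeR), and Stat5b 44.7 ± 4.40 and 30.1 ± 42.4 (adjusted p = 0.963), the wild-type SD being the gap between lines 119 and 73. Without line 119 the Stat5b difference changed sign, from 0.79 to -0.22 on the log2 scale, and the Stat5a difference was 0.75 (adjusted p = 0.408). Stat3, Stat4 and Stat5a were separated and higher in the knockout lines, where 5.20% of all genes were, and no member was separated and lower, where 7.18% were. These 3 were also the members higher in both knockout lines than in line 73 (17.2% of all genes), and Stat4 and Stat5a had all knockout libraries above all wild-type ones (7.94%). Stat5a passed against line 73 by 0.86 (112) and 0.64 (113), the latter with adjusted p = 0.00593, or 0.0846 without line 73 replicate 2. Between the knockout lines, 2 of the 6 differed, Stat4 (112 over 113, 0.48) and Stat5b (0.52), where 40.2% of all genes did. The Stat5b call missed the threshold without line 112 replicate 2 (0.37, edgeR adjusted p = 0.0771) or line 113 replicate 2 (0.46, adjusted p = 0.0830). Between the wild-type lines 5 did, all but Stat3, where 57.2% of all genes did. Across genotypes 4 differed between 112 and 119 (all genes 48.5%), and 5 each between 112 and 73 (51.8%), 113 and 119 (58.6%) and 113 and 73 (51.9%).

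The authors' peak lists, called per library, overlapped 34 of the 44 regions in at least 1 library by 1 bp or more. The regions at the Stat2 and Stat3 starts and Stat6 region 4 had a peak in all 8 libraries, and the starts of Stat5b (region 6) and Stat5a (region 2) in 6, all but those of line 119. Stat4 region 5 had a peak in 6 libraries, and Stat5a region 1 in 3. A library's member regions with a peak numbered 9 to 20. The 9 belong to line 112 replicate 2, the library with the fewest total counts, and the number of peaks called depends on depth.

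For the other genes of the pathway, 35 JAK-STAT genes were listed by role and 34 gave a value. None was called in the genotype test, and 3 had an unadjusted p under 0.05, where 10.1% of all genes did. Ptpn6, a phosphatase that dampens cytokine signalling in blood cells, stood at 61.2 and 32.3 CPM (line 112), 41.5 and 40.6 (line 113), 10.7 and 8.61 (line 119) and 3.84 and 6.11 (line 73). All knockout libraries were above, by 2.54 ± 0.52 (SE) on the log2 scale (adjusted p = 0.116, edgeR). Il4ra, the IL-4 receptor chain upstream of STAT6, went the other way, with 58.5 to 82.9 CPM in knockout and 102 to 181 in wild-type libraries (-0.89, adjusted p = 0.320). Jak1, a kinase shared by most of these receptors, had 106 to 157 CPM in knockout and 188 to 226 in wild-type libraries (-0.68, adjusted p = 0.490). By role, 1 of 10 inhibitors was separated and higher (Ptpn6), while 3 of 11 receptors (Il4ra, Ifnar1, Ifngr1), 1 of 4 kinases (Jak1) and 1 of 8 targets (Bcl3) were separated and lower. Over the 34 genes this was 1 higher and 5 lower, against 5.2% and 7.18% of all genes. Of their 260 tested regions 0 were called, 13 (5.00%) were separated and higher and 25 (9.62%) separated and lower, against the 7.64% and 7.41% of all regions.

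The genes whose sums were most like each member's were ranked by Pearson's r of log2 CPM over the 8 libraries, among genes with a mean of at least 10 CPM. They were Foxp2, Fam178b and Ptpn6 for Stat4 (r = 0.989 for each), Def6, Pafah2 and Mark4 for Stat3 (0.991 to 0.994), and Cgn, Zfp62 and Ap2m1 for Stat2 (0.993 to 0.997). For Stat6 they were Stip1, Gcm1 and Dnajb12 (0.996 to 0.997), for Stat5a Ankfn1, Zfp398 and Septin1 (0.990 to 0.993), and for Stat5b Mcf2l, Gm46963 and Entpd5 (0.992 to 0.994). These describe 4 lines measured as pairs of libraries, and with line 119 near 0 the Stat5 likenesses rest on that line. Ankfn1, for one, had 10.99 and 13.5 CPM (line 119) and 81.4 to 137 elsewhere, and Mcf2l had 40.5 and 42.5 against 99.4 to 120.

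The lines also differed in markers of the melanocyte lineage. A peak within 1 kb of a gene end was found for 8 of 9 such markers in line 112, for 9 in line 113 and for 7 in line 119, but line 73 had only 2 (Mitf and Pmel), so most defining markers had none in line 73. Summed over the 9 genes, the level was 1083 to 1940 CPM in the knockout libraries and 599 to 770 in the wild-type ones. Endothelial markers had a peak for 0 of 3 in each knockout line and 1 in each wild-type line, and their summed level was lower in the knockout libraries (83.5 to 98.5 CPM) than in the wild-type ones (131 to 155). Of the 3 genes, 2 (Cdh5 and Kdr) had all knockout libraries below all wild-type ones, as 10.8% of all genes did. Tek did not: line 73 (17.4 and 19.4 CPM) lay below every knockout library (25.9 to 31.3). Keratinocyte sums, 4.53 to 17.9 CPM in knockout and 8.01 to 19.7 in wild type, overlapped. Fibroblast markers had a peak for 1 of 3 in each knockout line, 2 in line 119 and 3 in line 73, with summed levels of 170 to 235 CPM in knockout and 180 to 452 in wild-type libraries. Ptprc, the gene of the pan-leukocyte protein CD45, looked at because the lines came from lymph nodes and Stat4 and Ptpn6 are active in blood cells, had a peak near a gene end in no line, with 16.5 to 22.5 CPM in knockout and 21.2 to 79.4 in wild-type libraries. Single melanocyte markers did not all follow their sum. For 7 of 9, all knockout libraries were above all wild-type ones, as for 7.94% of all genes. But Pmel was higher in line 73 (142 and 148 CPM) than in line 112 (94.96 and 75.1), and Tyrp1 in line 119 (52.0 and 45.8) overlapped line 112 (48.9 and 46.8). Melanocyte and endothelial sums thus did not overlap between the labelled genotypes, which had 2 lines each and were not compared by a test here. Their part in the STAT differences was not tested. A lower level in these bulk libraries can be fewer cells with an open site or less cutting per cell, which cannot be told apart.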

How the data were processed

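ATAC-seq was measured in 8 libraries of 4 lines. Per the submitters' processing notes, the authors used Bowtie2 2.2.4, Picard 1.118 and MACS2 2.1.1.20160309 with mm10 (GRCm38). The deposited table holds raw counts over 148664 shared regions, and totals ran from 2697546 to 7464336 per library. The authors' peak lists, per the file headers, give per library a score, a fold enrichment and −log10 p and q values for each peak, which were used only for overlap. Regions were assigned to 21896 protein-coding genes of the RefSeq table. A region inside another gene went to a STAT gene when its nearest gene end was that of the STAT gene (Stat2 region 1, Stat6 region 5). STAT genes also took precedence where genes overlap. Other genes had neither rule, so shares over all genes come from a slightly different assignment.

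Counts were summed per line and tested with edgeR 4.0.16 (R 4.3.3; TMM, filterByExpr with a minimum of 10 and a total of 15, glmQLFit, glmQLFTest, two-sided, Benjamini-Hochberg over all features). Line pairs came from a single model of all 8 libraries in which every line had its own mean. CPM used TMM-scaled library sizes. DESeq2 1.42.0, other filters, scalings and windows, and each library left out were alternatives. P-values between lines measure only the spread between 2 libraries of a line, which may be technical. The fits were checked on simulated data with large changes only, which does not show how well smaller differences are found. The members and gene lists were chosen with earlier results of these data known. Named regions were, within each gene, the one with most counts, those nearest each gene end, every separated one and the one with the smallest genotype p; named pathway genes were the 3 with the smallest p. All 6 members matched the promoter table. A summed leukocyte marker level is not reported here. The other cell type lists were melanocyte lineage, endothelium, fibroblasts and keratinocytes, and a peak within 1 kb of a gene end was found for 0 or 1 of 3 endothelial, 1 to 3 of 3 fibroblast and 0 or 1 of 2 keratinocyte markers per line.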

Additional observations from a re-analysis of the deposited data

Results flagged for a closer look

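There were 52 sets of 4 libraries of 1 labelled genotype. In 3, the gap of a library to the nearest of the others exceeded the 95% limit of Dixon's test. About 1 in 20 sets of independent values passes it by chance. That rate is only a guide here, since each set holds 2 libraries from each of 2 lines and gene sums contain their regions. All 3 flagged sets concern Stat4. Its sum was 119 CPM in line 112 replicate 1 and 96.8 to 99.2 in the other knockout libraries. Stat4 region 9 gave 3.23 CPM in line 119 replicate 1 and 1.79 to 1.94 in the other wild-type libraries. Stat4 region 12 gave 6.57 CPM in line 113 replicate 1 and 3.39 to 3.87 in the other knockout libraries. Each high library had its partner from the same line among the lower 3.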

How the results depend on the processing

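The genotype test called 0 of 42 STAT regions, and 8 with libraries as units, 1 with DESeq2 and 7 without both libraries of line 119; it called 0 of 6 gene sums, and 2 with libraries as units (Stat3, adjusted p = 0.0263, and Stat4, 0.0370) and 1 without line 119 (Stat4). Both counts stayed at 0 when any single library was left out. With a mean of at least 50 counts per library, which tests fewer regions, 1 region was separated and higher, and the line pairs called 4 (112 and 119), 5 (112 and 73), 6 (113 and 119), 3 (113 and 73), 2 (112 and 113) and 8 (119 and 73). Inside genes only, 112 and 73 gave 12 and 112 and 113 gave 2. Without line 119, 4 regions were separated and lower, by construction against line 73 alone. With an overlap of at least 0.5 of the region, 18 regions had a peak, not 34.

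Leaving out 1 library at a time gave 5 to 9 separated and higher regions and 0 separated and lower. It gave 19 to 27 region calls for 112 and 119, 17 to 21 for 112 and 73, 20 to 29 for 113 and 119, 16 to 20 for 113 and 73, 1 to 7 for 112 and 113 (1 without line 113 replicate 1, 4 without line 113 replicate 2) and 22 to 29 for 119 and 73. Gene calls ran from 3 to 5 for 113 and 119 (3 without line 113 replicate 2, line 119 replicate 1 or line 119 replicate 2), 3 to 5 for 113 and 73 (3 without line 113 replicate 2 or line 73 replicate 2) and 1 to 3 for 112 and 113 (1 without line 112 replicate 2 or line 113 replicate 2), and were 4, 5 and 5 throughout for the other pairs. Where a line is left with 1 library, that library is assumed to vary like the other lines.

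Replicate numbers did not pair the lines: deviations of same-numbered libraries had correlations from -0.037 to 0.0039. With the replicate number as a block, 8 regions were separated and higher and 0 lower, the pairs called 25, 21, 28, 19, 7 and 27 regions in the order of the report, and gene calls kept their numbers. Depth limits the weak regions: 3 counts equal 0.388 to 0.923 CPM per library.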
